A study of Arabidopsis thaliana with 24 samples.

Results

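The tau and phi glutathione S-transferases of Arabidopsis thaliana were followed through an RNA-seq experiment on H2O2 spray in a mutant of the transcription factor bZIP68, and through a list of bZIP68 binding peaks. The members were 40 genes chosen by name, the 28 tau genes GSTU1 to GSTU28 and 12 phi genes, GSTF2 to GSTF14 without GSTF12. Of these, 34 (24 tau and 10 phi) were among the 18430 genes of the deposited count table, and all 34 passed the filter on low counts that left 18205 genes. GSTU3, GSTU11, GSTU15, GSTU21, GSTF3 and GSTF5 were not analysed here in the RNA-seq.

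Glutathione S-transferases join the tripeptide glutathione to reactive or foreign molecules, or use it to reduce peroxides, and ATP-driven transporters carry many of the conjugates into the vacuole. The tau and phi classes are the most numerous in plants, often sit in tandem arrays, and hold many genes known to be induced by oxidants, herbicide safeners, pathogens or hormones. TGA factors, which are basic leucine zipper (bZIP) proteins, bind TGACG motifs of several such genes, whereas bZIP68 belongs to group G, whose members bind the G-box, CACGTG.

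RNA came from whole seedlings of 14 days under 125 µmol of light, in 4 groups of 3 libraries: bzip68 mutants and wild type (wt), each sprayed with 5 mM H2O2 in 0.01% Triton X-100, and bzip68 mutants and wt each given the mock spray of 0.01% Triton X-100 alone. Only 1 mutant line was used, and neither its allele nor the time between spray and harvest is stated in the labels. The series also holds low-light samples, which are not analysed here. ChIP-seq used 8-day seedlings with bZIP68-FLAG and, as the control, with GFP-FLAG, 3 samples each. No treatment is labelled for those seedlings, so binding and RNA were measured on plants that differ in age and handling. The labels do not say that the samples of a group were grown apart, so the spread behind each p-value may be technical only.

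Library totals ran from 8997073 to 10262992 counts. BZIP68 itself had 0 to 2 counts in the bzip68 libraries and 70 to 102 in the wt libraries. On the second principal component 2 libraries stood apart, replicate 2 of mock bzip68 and replicate 2 of H2O2 wt, and chloroplast genes took 0.0121% of counts in H2O2 wt replicate 2, against 1.05% to 1.54% in the other libraries. Calls of members that were lost or gained without both of those libraries are given below. A gene was called changed at an adjusted p under 0.05 in edgeR's quasi-likelihood test, with Benjamini-Hochberg adjustment over the 18205 genes of a comparison. This test on all 12 libraries underlies the adjusted p-values below, except where another method, a replicate block or a fit on fewer libraries is named.

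The sequences below are shown because a bZIP68 peak lies on them. They were read from the RefSeq reference (TAIR10.1) and run 5′ to 3′ on the strand of the named gene, with capitals for CACGTG and for TGACG on either strand, where the other strand of TGACG reads CGTCA. The GSTU17 stretch is the 250 bases before its start, chr1:3398359-3398608, minus strand. The GSTU9 stretches lie within its upstream peak, chr5:25089950-25090099, and within a peak past its 3′ end, chr5:25086837-25086986, minus strand. The stretch in the upstream peak also reaches the start of the neighbouring gene HVA22B. The GSTF3 stretch is chr2:853086-853235, minus strand, and the GSTF9 stretch chr2:13139905-13140054, plus strand, inside a coding exon.
GSTU17 upstream: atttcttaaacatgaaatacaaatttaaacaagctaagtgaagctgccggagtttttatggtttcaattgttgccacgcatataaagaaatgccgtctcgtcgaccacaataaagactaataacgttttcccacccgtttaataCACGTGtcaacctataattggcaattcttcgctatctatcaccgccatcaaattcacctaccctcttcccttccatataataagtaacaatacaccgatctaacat
GSTU9 upstream peak: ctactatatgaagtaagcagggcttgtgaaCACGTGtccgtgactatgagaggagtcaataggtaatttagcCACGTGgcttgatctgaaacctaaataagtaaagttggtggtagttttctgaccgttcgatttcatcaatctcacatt
GSTU9 downstream peak: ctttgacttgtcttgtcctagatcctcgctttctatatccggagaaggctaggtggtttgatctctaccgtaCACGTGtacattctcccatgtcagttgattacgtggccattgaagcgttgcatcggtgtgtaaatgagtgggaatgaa
GSTF3 peak: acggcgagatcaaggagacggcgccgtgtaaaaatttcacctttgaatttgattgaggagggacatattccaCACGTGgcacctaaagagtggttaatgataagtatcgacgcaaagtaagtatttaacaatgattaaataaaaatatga
GSTF9 peak: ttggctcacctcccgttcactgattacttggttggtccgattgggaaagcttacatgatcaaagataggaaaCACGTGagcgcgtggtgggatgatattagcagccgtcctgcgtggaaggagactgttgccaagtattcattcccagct

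A second set gives examples of members called with H2O2 that hold TGACG, and the other called members are not shown. GSTU7 (chr2:12618900-12619149, minus strand) had 3 TGACG matches, which share bases in part, and GSTU24 (chr1:5869293-5869542, plus strand) had 1. These are the 250 bases before each start.
GSTU7 upstream: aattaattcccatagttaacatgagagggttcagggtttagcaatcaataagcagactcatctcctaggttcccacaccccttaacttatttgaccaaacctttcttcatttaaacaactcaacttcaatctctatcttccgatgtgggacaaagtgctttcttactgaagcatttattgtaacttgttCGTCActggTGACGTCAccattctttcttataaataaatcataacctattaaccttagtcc
GSTU24 upstream: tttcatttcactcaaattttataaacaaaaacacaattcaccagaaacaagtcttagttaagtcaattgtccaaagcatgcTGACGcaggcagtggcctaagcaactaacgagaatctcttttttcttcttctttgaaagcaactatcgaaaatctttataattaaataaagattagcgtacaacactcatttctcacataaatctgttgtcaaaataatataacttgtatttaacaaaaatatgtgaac

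Over windows from 250 bases before to 50 after the start, TGACG stood in 17 of the 40 members (42.5%), against 23.1% of 27443 protein-coding promoters. CACGTG stood in 3 of the 40 (7.5%), against 7.68% of those promoters. A match describes the letters only. Of the 4 members that rose in both genotypes (below), GSTU24 had a TGACG match and GSTU4, GSTU10 and GSTU12 had neither motif in this window. Among the other members called with H2O2, GSTU7, GSTF8 and GSTU9, which fell, had TGACG. GSTU2, GSTU8, GSTU17, GSTF6, GSTF7 and GSTF11 had no TGACG. Members not called with H2O2 held it too, such as GSTU1, GSTU19 and GSTF10. Whether TGACG goes with the H2O2 calls was not tested.

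The members spanned a wide range of levels, and the least abundant were close to the limit of detection. CPM are counts scaled to a common library total (TMM), and levels of different genes are compared as CPM per kb of exon. GSTF10, known also as a partner of the BAK1 receptor kinase, averaged 456.0 CPM per kb over the 12 libraries, GSTU19, a safener-induced enzyme active on herbicide-like substrates, averaged 432.4, and GSTF9, which has glutathione peroxidase activity, averaged 386.4. Next came GSTU20, known from jasmonate and far-red light signalling, at 184.7 CPM per kb, GSTF8, whose promoter is a classic reporter of oxidative stress, at 146.5, and GSTF7 at 104.7. GSTU17, an early dehydration gene that acts in light and drought responses, averaged 68.2 CPM per kb, and GSTU25, which like GSTU24 can detoxify trinitrotoluene, averaged 63.3. At the other end lay GSTF13 (1.05 CPM per kb), GSTU4 (1.48), GSTU28 (1.6), GSTU23 (1.77), GSTU6 (1.79) and GSTU14 (1.94). GSTF13 had 5 to 22 counts per library and GSTU28 had 8 to 18, so changes of these genes were hard to detect at this depth.

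**Figure D1:**
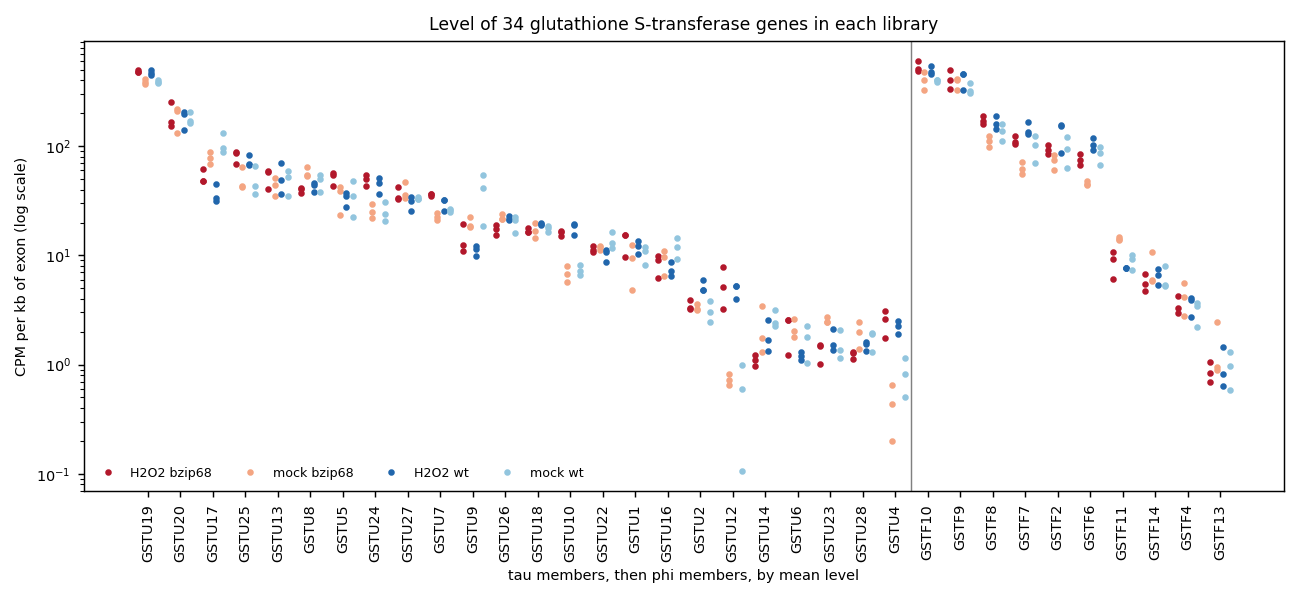
Level of the 34 measured members in each of the 12 libraries, as CPM per kb of exon on a log axis, with tau members left of the line and phi members right of it, in order of mean level; each point is 1 library, coloured by group. The means span 456.0 CPM per kb for GSTF10 to 1.05 for GSTF13.

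A few genes carried most of each class. GSTU19 and GSTU20 held 55.9% of the summed tau CPM, and GSTF10, GSTF9 and GSTF8 held 77.8% of the summed phi CPM. The phi sum was 2085.1, 1806.9 and 1839.3 CPM in H2O2 bzip68 libraries, against 1583.7, 1272.2 and 1508.1 CPM in mock bzip68 libraries. In wt it was 2227.0, 1685.6 and 2015.9 CPM in H2O2 libraries, against 1374.7, 1778.8 and 1553.5 CPM in mock libraries. The groups did not overlap in bzip68. In wt they overlapped only in that H2O2 wt replicate 2, which stood apart, lay below mock wt replicate 2. The tau sum was 1401.3, 1284.0 and 1346.3 CPM in H2O2 bzip68 libraries, against 1265.6, 1081.5 and 1183.1 CPM in mock bzip68 libraries, and again the groups did not overlap. In wt the tau sum was 1326.7, 1230.7 and 1201.9 CPM in H2O2 libraries, against 1150.7, 1212.9 and 1265.7 CPM in mock libraries, and these overlapped. No test was made on the sums.

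With H2O2, 10 of the 34 members passed the test in bzip68 (29.4%; 8 rose, 2 fell), where 7.39% of all genes did (4.11% rose, 3.28% fell). In wt, 7 of 34 passed (20.6%; 5 rose, 2 fell), where 9.74% of all genes did (5.02% rose, 4.72% fell). DESeq2 called 13 members in bzip68 (8.56% of all genes) and 8 in wt (10.9%), and limma voom called 15 in bzip68 (13.0%) and 12 in wt (16.1%). The median log2 change of the members was 0.05 in bzip68 and 0.14 in wt, beside 0.00 over all genes tested in each. Every library of one treatment lay beyond every library of the other for 20 members in bzip68 (13 higher with H2O2, 7 lower), against 22.0% of all genes (11.3% higher, 10.7% lower), and for 14 in wt (10 higher, 4 lower), against 28.9% of all genes (14.5% higher, 14.4% lower). GSTU4, GSTU10, GSTU12 and GSTU24 rose in both genotypes. GSTU2, GSTU9 and GSTU17 passed in wt, and GSTF6, GSTF7, GSTF8, GSTF11, GSTU7 and GSTU8 passed in bzip68; whether these 9 respond differently between genotypes is a separate test, given below.

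GSTU10 (AT1G74590) showed the change with the smallest relative error among the 4 that rose in both genotypes. It had 18.8, 17.2 and 19.2 CPM in H2O2 bzip68 libraries, against 9.23, 7.72 and 6.61 CPM in mock bzip68 libraries. In wt it had 21.8, 22.2 and 17.7 CPM in H2O2 libraries, against 7.58, 9.37 and 8.23 CPM in mock libraries. Every H2O2 library was well above every mock library, with log2 fold changes of 1.22 ± 0.16 in bzip68 (SE; adjusted p = 0.000175) and 1.29 ± 0.16 in wt (adjusted p = 5.85e-05). GSTU12 (AT1G69920), an enzyme with a nuclear targeting signal, was near the floor in mock plants: it had 47, 30 and 73 counts in H2O2 bzip68 libraries against 7, 7 and 6 in mock bzip68 libraries. Wild-type plants had 53, 43 and 52 counts in H2O2 libraries against 1, 9 and 6 in mock libraries. Its log2 fold changes were the largest among the members, 2.87 ± 0.43 in bzip68 (adjusted p = 0.000574) and 3.07 ± 0.45 in wt (adjusted p = 0.000322).

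GSTU4 (AT2G29460) was likewise a low gene that rose. It had 3.05, 2.07 and 3.63 CPM in H2O2 bzip68 libraries, against 0.513, 0.234 and 0.758 CPM in mock bzip68 libraries, and the log2 fold change was 2.49 ± 0.41 (adjusted p = 0.00126). The wt plants had 2.66, 2.92 and 2.23 CPM in H2O2 libraries, against 0.961, 1.34 and 0.595 CPM in mock libraries, with a log2 fold change of 1.44 ± 0.37 (adjusted p = 0.0199). No H2O2 library overlapped a mock library, but the wt call was lost without H2O2 wt replicate 1 or 2 or mock wt replicate 1 or 3 (log2 1.17 to 1.44, adjusted p 0.0515 to 0.109). GSTU24 had 51.9, 64.8 and 59.7 CPM in H2O2 bzip68 libraries, against 30.1, 35.6 and 26.5 CPM in mock bzip68 libraries. In wt it had 55.2, 60.8 and 44.2 CPM in H2O2 libraries, against 28.9, 36.9 and 24.7 CPM in mock libraries. The H2O2 libraries were higher without overlap in both genotypes, at log2 0.94 ± 0.17 in bzip68 (adjusted p = 0.00227) and 0.83 ± 0.17 in wt (adjusted p = 0.00421).

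**Figure D2:**
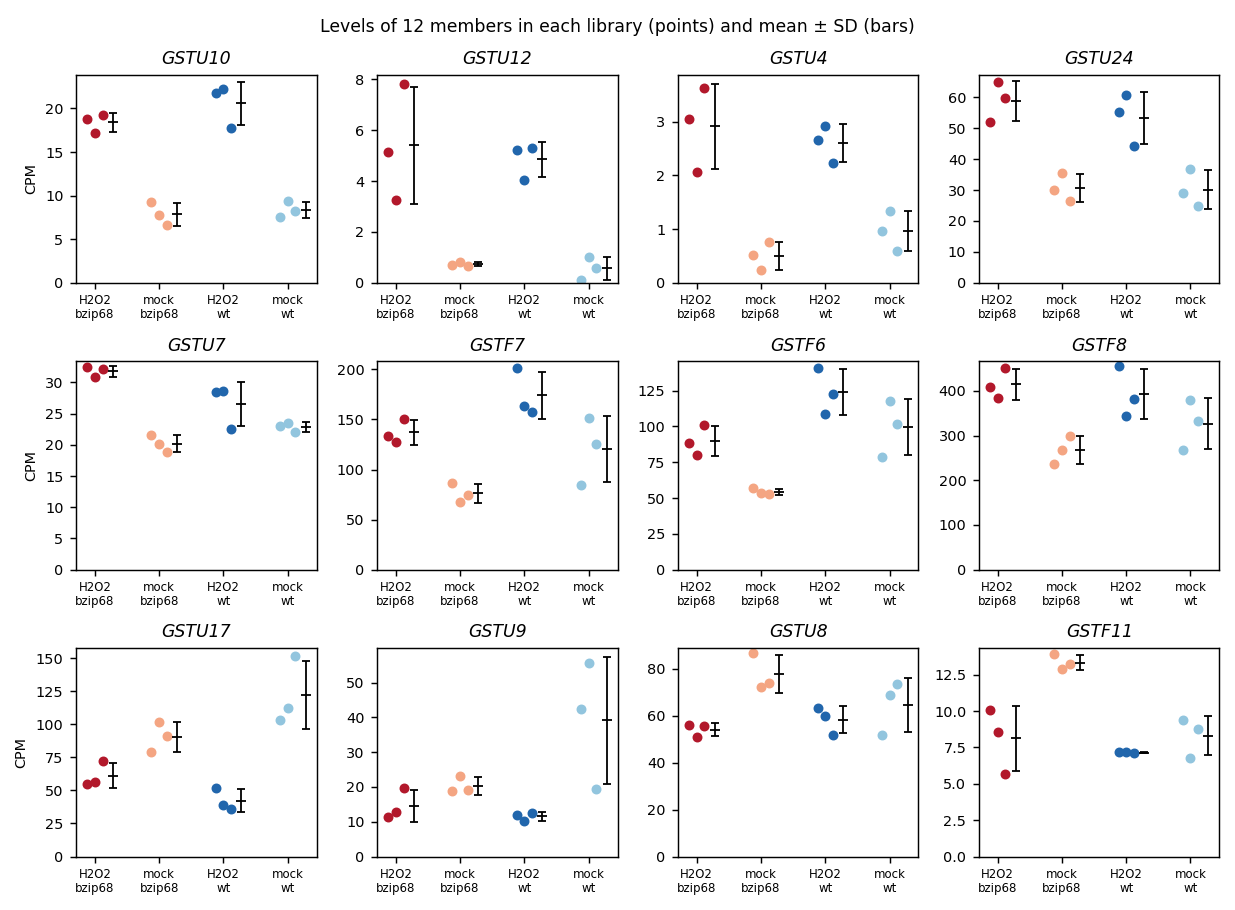
CPM of 12 members in each library, from left to right H2O2 bzip68, mock bzip68, H2O2 wt and mock wt; points are libraries, bars the mean ± SD of 3, and each panel starts at 0. GSTU10, GSTU12, GSTU4 and GSTU24 stand higher in H2O2 than in mock libraries of both genotypes, and GSTU17 stands lower.

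In bzip68, 4 further members rose with H2O2. GSTU7 had 32.4, 30.8 and 32.2 CPM in H2O2 bzip68 libraries, against 21.6, 20.1 and 18.9 CPM in mock bzip68 libraries, a log2 fold change of 0.65 ± 0.12 (adjusted p = 0.00329). The wt values were 28.4, 28.7 and 22.5 CPM with H2O2, against 23.0, 23.5 and 22.0 CPM with mock spray, which overlapped (log2 0.22 ± 0.12, adjusted p = 0.327). GSTF7 had 133.4, 127.0 and 150.7 CPM in H2O2 bzip68 libraries, against 86.3, 67.8 and 74.8 CPM in mock bzip68 libraries (log2 0.84 ± 0.18, adjusted p = 0.00786). Wild-type plants had 201.2, 163.8 and 157.6 CPM in H2O2 libraries, against 85.0, 151.0 and 125.2 CPM in mock libraries, again higher without overlap but short of the threshold (log2 0.53 ± 0.18, adjusted p = 0.0719). It passed in wt with DESeq2 (adjusted p = 0.0411), with limma voom (0.00522) and without mock wt replicate 2 (log2 0.73, adjusted p = 0.0202). GSTF6 (AT1G02930), which takes part in the synthesis of the defence compound camalexin, had 88.5, 80.4 and 100.9 CPM in H2O2 bzip68 libraries, against 56.7, 53.5 and 52.8 CPM in mock bzip68 libraries (log2 0.73 ± 0.15, adjusted p = 0.007). Its wt values were 141.0, 108.5 and 122.4 CPM with H2O2, against 79.0, 117.8 and 101.9 CPM with mock spray (log2 0.32 ± 0.15, adjusted p = 0.228). They overlapped only in that H2O2 wt replicate 2 lay below mock wt replicate 2. Limma voom called the gene in wt, at log2 0.50 (adjusted p = 0.0192). With 94.3% identity over their coding sequence, reads of GSTF6 and GSTF7 may be split between them in counting.

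GSTF8 had 407.9, 384.9 and 452.4 CPM in H2O2 bzip68 libraries, against 236.1, 267.9 and 298.6 CPM in mock bzip68 libraries, a log2 fold change of 0.63 ± 0.15 (adjusted p = 0.0163; 0.0867 without H2O2 bzip68 replicate 3). The wt plants had 455.1, 344.3 and 381.8 CPM in H2O2 libraries, against 268.6, 380.4 and 332.1 CPM in mock libraries (log2 0.27 ± 0.15, adjusted p = 0.328). These overlapped only in that H2O2 wt replicate 2 lay below mock wt replicate 2. Limma voom called GSTF8 in wt, at log2 0.42 (adjusted p = 0.0407). GSTF2, which binds indole compounds, had 134.4, 125.3 and 151.8 CPM in H2O2 bzip68 libraries, against 123.3, 89.2 and 109.5 CPM in mock bzip68 libraries (log2 0.35 ± 0.24, adjusted p = 0.493). In wt GSTF2 had 230.4, 127.1 and 225.0 CPM in H2O2 libraries, against 92.4, 179.7 and 138.3 CPM in mock libraries (log2 0.50 ± 0.24, adjusted p = 0.245). H2O2 wt replicate 2 was again the low H2O2 library, and GSTF2 passed in wt without both libraries that stood apart (log2 0.74, adjusted p = 0.0293) and with limma voom (0.81, 0.0438). The abundant GSTU19 and the TNT-detoxifying GSTU25 were higher in every H2O2 library of both genotypes without passing edgeR's test on all 12 libraries. GSTU19 had log2 values of 0.31 ± 0.11 in bzip68 (adjusted p = 0.0919) and 0.27 ± 0.11 in wt (adjusted p = 0.129); DESeq2 called it in bzip68 (adjusted p = 0.00579) and wt (0.0157), and limma voom in bzip68 (0.0158). GSTU25 had log2 values of 0.70 ± 0.21 in bzip68 (adjusted p = 0.0608, and 0.00432 with the replicate number as a block) and 0.58 ± 0.21 in wt (adjusted p = 0.106). GSTU25 in bzip68 passed also without mock bzip68 replicate 2 (log2 0.92, adjusted p = 0.0127) and without both libraries that stood apart (0.92, 0.0118), with DESeq2 (0.69, 0.0279) and with limma voom (0.86, 0.00147). In wt it passed with the replicate block (0.61, adjusted p = 0.0104), with limma voom (0.65, 0.0105) and without mock wt replicate 2 (0.87, 0.0122).

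GSTU2 passed narrowly, in wt. It had 3.16, 3.7 and 3.1 CPM in H2O2 bzip68 libraries, against 3.08, 3.39 and 3.03 CPM in mock bzip68 libraries. In wt it had 5.61, 4.61 and 4.57 CPM in H2O2 libraries, against 2.35, 2.9 and 3.67 CPM in mock libraries, a log2 fold change of 0.72 ± 0.22 (adjusted p = 0.0483). That call was lost without any 1 of H2O2 wt replicates 1 to 3 and mock wt replicates 1 and 2 (log2 0.58 to 0.77, adjusted p 0.0807 to 0.193), and without both libraries that stood apart (0.77, 0.0691). The gene overlaps another on the opposite strand over 849 bases, and strandedness is not given in the sources used here, so its reads cannot be told apart from that gene's. The same limit holds for GSTF2, with an opposite-strand overlap of 1442 bases, GSTU7, with 636, and GSTU10, with 279, while GSTF8 overlaps a gene on its own strand over 516 bases. GSTF2 also has 94.5% coding identity with GSTF3, so reads of these genes may be split between them in counting.

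GSTU17 (AT1G10370) had the smallest adjusted p of the members in wt. It had 55.2, 56.0 and 72.3 CPM in H2O2 bzip68 libraries, against 79.1, 101.7 and 91.3 CPM in mock bzip68 libraries. Wild-type plants had 52.0, 38.9 and 36.2 CPM in H2O2 libraries, against 103.0, 112.1 and 151.6 CPM in mock libraries. All H2O2 libraries were lower in both genotypes, at log2 -1.53 ± 0.18 in wt (adjusted p = 4.01e-05) and -0.57 ± 0.18 in bzip68, which missed the threshold (adjusted p = 0.0653). In bzip68 it passed with DESeq2 (-0.58, adjusted p = 0.0335), with limma voom (-0.61, 0.011) and without mock bzip68 replicate 1 (-0.66, 0.036). GSTU9 had 11.3, 12.7 and 19.8 CPM in H2O2 bzip68 libraries, against 18.8, 23.3 and 19.0 CPM in mock bzip68 libraries, which overlapped (log2 -0.47 ± 0.32, adjusted p = 0.49). The wt plants had 11.9, 10.2 and 12.6 CPM in H2O2 libraries, against 42.5, 55.6 and 19.3 CPM in mock libraries, a log2 fold change of -1.76 ± 0.32 (adjusted p = 0.00372). Mock wt replicate 3 was far below the other mock wt libraries for this gene, and the wt call was lost without both libraries that stood apart (log2 -1.67, adjusted p = 0.052).

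In bzip68 the falling members were GSTU8 and GSTF11, which is a gene of the aliphatic glucosinolate pathway. GSTU8 had 56.1, 50.8 and 55.4 CPM in H2O2 bzip68 libraries, against 86.9, 72.3 and 74 CPM in mock bzip68 libraries (log2 -0.52 ± 0.14, adjusted p = 0.0317), and the wt value was -0.15 ± 0.14 (adjusted p = 0.622). GSTF11 had 10.1, 8.59 and 5.66 CPM in H2O2 bzip68 libraries, against 13.9, 12.9 and 13.2 CPM in mock bzip68 libraries (log2 -0.72 ± 0.19, adjusted p = 0.0318), and the wt value was -0.22 ± 0.20 (adjusted p = 0.594). The groups did not overlap in bzip68 for either gene. The GSTU8 call was lost without any 1 of H2O2 bzip68 replicates 1 to 3 or mock bzip68 replicates 1 and 3 (log2 -0.56 to -0.44, adjusted p 0.0658 to 0.111). The GSTF11 call was lost when H2O2 bzip68 replicates 2 or 3, or mock bzip68 replicates 1 or 3, were left out (log2 -0.76 to -0.51, adjusted p 0.0571 to 0.153), and this gene overlaps an opposite-strand gene over 1096 bases.

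Root genes fell beside these members. Of 12 root markers, 11 were measured. With H2O2 7 of 11 fell in bzip68 (63.6%, beside 3.28% of all genes) and 3 of 11 in wt (27.3%, beside 4.72%), with no call upward. DESeq2 called 7 in bzip68 and 3 in wt, all lower, where 8.56% and 10.9% of all genes were called in either direction. Limma voom called 8 and 3, all lower, where 13.0% and 16.1% were. TIP2;3, a root aquaporin of the vacuole, changed by log2 -1.51 ± 0.25 in bzip68 (adjusted p = 0.00142) and -1.04 ± 0.25 in wt (adjusted p = 0.0139), CASP1 of the Casparian strip by -0.93 ± 0.16 in bzip68 (adjusted p = 0.00157), and the nitrate transporter NRT2.1 by -0.85 ± 0.18 in wt (adjusted p = 0.007). Summed over the 11 markers, the level was 3051.7 to 3551.0 CPM in H2O2 bzip68 libraries against 3489.6 to 4710.8 CPM in mock bzip68 libraries, and 3140.3 to 3654.6 CPM in H2O2 wt libraries against 3588.5 to 4069.2 CPM in mock wt libraries. Most of this is PYK10. Without it the sums were 51.9 to 64.3 CPM in H2O2 bzip68 libraries against 117.6 to 153.2 CPM in mock bzip68 libraries, and 45.6 to 62.9 CPM in H2O2 wt libraries against 74.4 to 86.5 CPM in mock wt libraries. No marker was at 0 in any group, edgeR called 0 of 10 leaf markers in either genotype (2 at an unadjusted p under 0.05 in each; DESeq2 and limma voom each called 2 in bzip68 and 1 in wt), and the part of root tissue in the members' changes was not tested. In whole seedlings, fewer root cells and less RNA per root cell cannot be told apart.

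**Figure D3:**
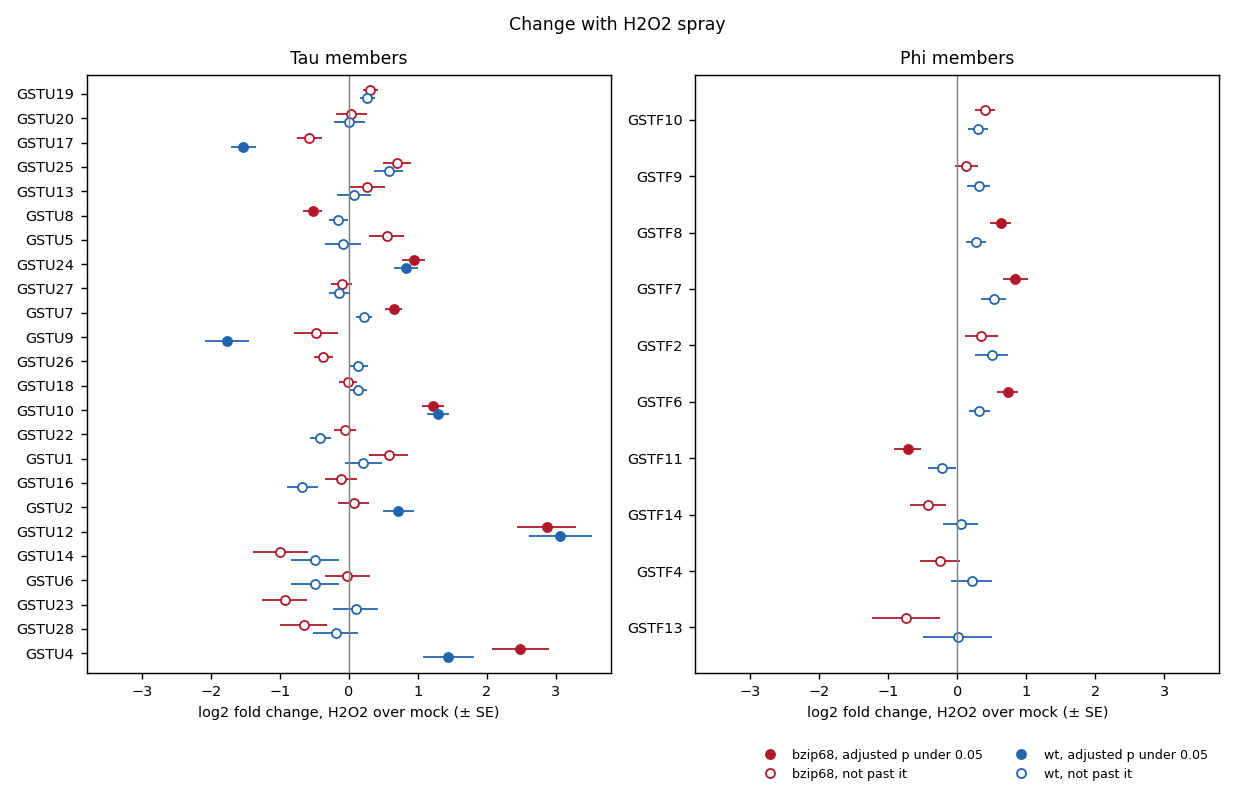
Log2 fold change of H2O2 over mock (± SE) for the 24 tau and 10 phi members, bzip68 drawn above wt; filled points have an adjusted p under 0.05. GSTU10, GSTU12, GSTU24 and GSTU4 are filled to the right in both genotypes, and GSTU17 and GSTU9 are filled to the left in wt.

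The difference between the responses was tested directly, and edgeR called no member and no gene at all (0 of 18205, 0.0%). At an unadjusted p under 0.05, 5 of 34 members stood out (6.47% of all genes did), and DESeq2 and limma voom called 0 members (0.133% and 0.0% of all genes). The smallest p was that of GSTU17, whose response was higher in bzip68 than in wt by log2 0.96 ± 0.25 (95% interval 0.43 to 1.49, adjusted p = 0.588). GSTU9 differed by 1.28 ± 0.45 (0.30 to 2.27, adjusted p = 0.722). For GSTU9 alone the difference passed in a fit without mock wt replicate 3, the low library (log2 1.61, adjusted p = 0.0474). GSTU26, known to act on chloroacetanilide herbicides, differed by -0.51 ± 0.20 (-0.93 to -0.09, adjusted p = 0.726). For members called in bzip68 and not in wt the intervals still reached 0 or close to it: 0.07 to 0.80 for GSTU7, -0.04 to 0.86 for GSTF6, -0.22 to 0.84 for GSTF7, -0.08 to 0.81 for GSTF8, -0.80 to 0.04 for GSTU8 and -1.08 to 0.09 for GSTF11. The 4 that rose in both genotypes had intervals of -0.55 to 0.41 (GSTU10), -1.62 to 1.22 (GSTU12), -0.16 to 2.28 (GSTU4) and -0.39 to 0.61 (GSTU24), so sizeable differences remain possible.

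Between genotypes in mock plants, 1 of 34 members was called (2.94%), where 0.214% of all genes were (0.170% lower in bzip68). DESeq2 called 2 members (1.21% of all genes), limma voom 3 (4.63%), and 6 members had an unadjusted p under 0.05 (10.1%). The member edgeR called was GSTF6, which had 56.7, 53.5 and 52.8 CPM in mock bzip68 libraries, against 79.0, 117.8 and 101.9 CPM in mock wt libraries. All bzip68 libraries were lower, by log2 -0.87 ± 0.15 (adjusted p = 0.0367), and the call was lost without mock bzip68 replicate 3 (-0.85, adjusted p = 0.207) or mock wt replicate 2 (-0.74, 0.175). Its neighbour GSTF7 had 86.3, 67.8 and 74.8 CPM in mock bzip68 libraries, against 85.0, 151.0 and 125.2 CPM in mock wt libraries; mock wt replicate 1 overlapped the bzip68 values, and the log2 fold change was -0.66 ± 0.18 (adjusted p = 0.177; DESeq2 0.0439). GSTU9 passed there without mock wt replicate 3 (log2 -1.27, adjusted p = 0.00981). The members' median was 0.01, as over all genes. Libraries of the genotypes did not overlap for 5 members (2 higher in bzip68, 3 lower), against 14.2% of all genes (6.87% higher, 7.37% lower). These mock libraries also enter the H2O2 responses, so the low mock level of GSTF6 in bzip68 and its rise with H2O2 there are not separate observations.

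Among the same mock plants all 11 measured root markers had positive log2 values in bzip68 over wt, with a median of 0.57 and none called. At an unadjusted p under 0.05 there were 6, where 10.1% of all genes passed. DESeq2 called 2 and limma voom 5, where 1.21% and 4.63% of all genes were called. CASP1, the one with the smallest p, had log2 0.57 ± 0.15 (adjusted p = 0.171). GSTF11 had the third smallest p of the members, at log2 0.68 ± 0.19 (adjusted p = 0.193), with 13.9, 12.9 and 13.2 CPM in mock bzip68 libraries against 9.39, 6.8 and 8.73 CPM in mock wt libraries. Without PYK10, the root markers summed to 117.6 to 153.2 CPM in mock bzip68 libraries and 74.4 to 86.5 CPM in mock wt libraries, and their part in the GSTF11 value was not tested.

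With H2O2 in both genotypes, edgeR called no member between bzip68 and wt (0 of 34, where 0.0714% of all genes were called), and 7 members had an unadjusted p under 0.05 (9.23% of all genes), 4 higher and 3 lower in bzip68. DESeq2 and limma voom also called 0 (0.406% and 0.143% of all genes). The libraries did not overlap for 10 members (3 higher, 7 lower), against 16.7% of all genes (8.49% higher, 8.18% lower). GSTF6 was lower in every bzip68 library, at 88.5, 80.4 and 100.9 CPM in H2O2 bzip68 libraries, against 141.0, 108.5 and 122.4 CPM in H2O2 wt libraries (log2 -0.46 ± 0.15, adjusted p = 0.377). GSTU17 was higher in every bzip68 library, at 55.2, 56.0 and 72.3 CPM in H2O2 bzip68 libraries, against 52.0, 38.9 and 36.2 CPM in H2O2 wt libraries (log2 0.53 ± 0.18, adjusted p = 0.386). In mock plants the same gene was lower in bzip68, at log2 -0.43 ± 0.17 (adjusted p = 0.405). GSTU2 was at log2 -0.57 ± 0.22 (adjusted p = 0.452) and also did not overlap.

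**Figure D4:**
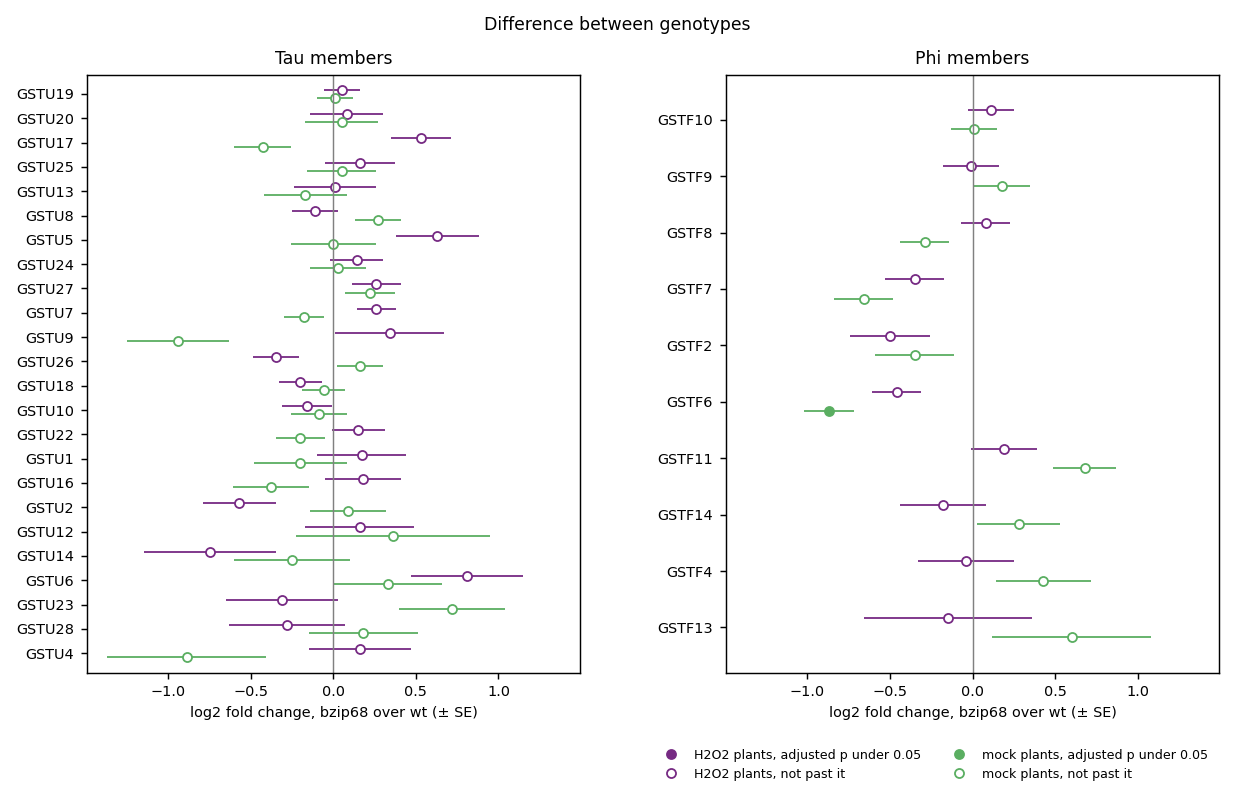
Log2 fold change of bzip68 over wt (± SE) for the 24 tau and 10 phi members, H2O2 plants drawn above mock plants; filled points have an adjusted p under 0.05. GSTF6 in mock plants, at -0.87, is the only filled point.

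Calls varied within tandem arrays, although the neighbours GSTF6 and GSTF7 both rose in bzip68. In the array on chromosome 2 (12617936 to 12632538), which holds GSTU1 to GSTU7, GSTU4 rose in both genotypes, GSTU7 in bzip68 and GSTU2 in wt, while GSTU1, GSTU5 and GSTU6 were not called with H2O2. GSTU5, an auxin-induced gene, had log2 0.55 ± 0.25 in bzip68 (adjusted p = 0.251) and -0.08 ± 0.26 in wt (adjusted p = 0.907). In the array on chromosome 1 (5869543 to 5876620), GSTU24 rose in both genotypes. GSTU25, next to it, was higher in every H2O2 library of both genotypes but passed only in other fits, given above. GSTU26 had -0.37 ± 0.14 in bzip68 (adjusted p = 0.148) and 0.14 ± 0.14 in wt (adjusted p = 0.621). GSTU17 and GSTU18 overlap by 71 bases on the same strand and have 81.6% coding identity. GSTU18 had 18, 16.7 and 16.7 CPM in H2O2 bzip68 libraries, against 20.1, 14.7 and 17 CPM in mock bzip68 libraries, and 20.1, 19.6 and 19.4 CPM in H2O2 wt libraries, against 19.0, 16.7 and 18.2 CPM in mock wt libraries. Its 12 libraries lay between 14.7 and 20.1 CPM, with log2 changes of -0.01 ± 0.13 in bzip68 and 0.13 ± 0.13 in wt. Differences between neighbours were not tested.

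The authors assigned a bZIP68 peak to 5 of the 40 members, GSTU9 (AT5G62480), GSTU17, GSTF3 (AT2G02930), GSTF9 (AT2G30860) and GSTF13 (AT3G62760). Among the 34 with counts, 4 had one, where 22.6% of the 18430 genes did, and in the authors' shorter list no member had one, where 3.88% did. The score of a peak is the authors' own and grows as its p-value shrinks. The GSTU17 peak (chr1:3397801-3398932, score 83.26) ranked 4933 by score in the larger peak list and lies across the start of the gene. Its G-box is centred at position -104 from the start, between genes, and is printed in capitals above. GSTF13 had a peak across its start (chr3:23217784-23219081, score 88.46) that also reached the 3′ end of the autophagy gene ATG18a, with G-boxes at -375, in the neighbour's untranslated region, and at 45, in a coding exon of GSTF13. The whole of GSTF9 lay under its peak (chr2:13138798-13140504, score 112.1), and the G-box was in a coding exon at position 983.

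GSTF3 had a peak before its start (chr2:852502-853364, score 158.5), with 1 G-box at position -939, in the exon of a non-coding RNA gene, AT2G04435, that the peak covers. GSTU9 had 2 peaks. The upstream one (chr5:25089314-25090413, score 103.2, rank 4165) held 2 G-boxes at -405 and -447, and also overlapped the start of the divergent neighbour HVA22B, a homologue of a barley gene induced by abscisic acid. These G-boxes (chr5:25090022-25090027 and 25090064-25090069) lie nearer to the HVA22B start, at 25090091, than to that of GSTU9. The other peak (chr5:25086378-25087605, score 446.0, rank 521) lay 922 bases past the 3′ end of GSTU9 and held 2 more G-boxes. All 6 peaks held at least 1 CACGTG, where 49.5% of the 3322 peaks of like width (863 to 1707 bases) did. In the central 300 bases, 2 of the 6 held one, where 31.0% of 5734 nuclear peaks did.

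**Figure D5:**
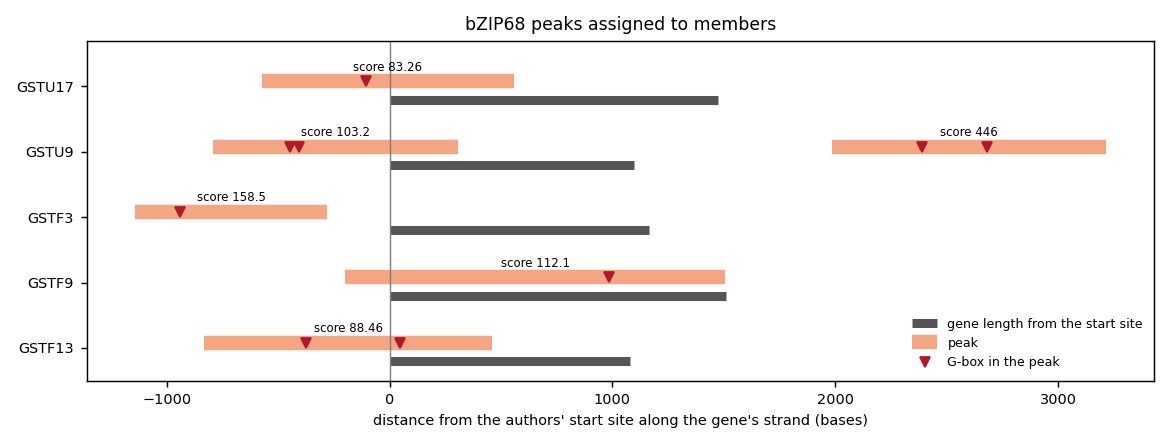
Peaks (light bars, with score) and their G-boxes (triangles) for the 5 members with a peak, by distance in bases from the authors' start site along the gene's strand; dark bars give the gene's length. G-boxes lie at -104 for GSTU17, at -405 and -447 for GSTU9 and at 983 for GSTF9.

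Of the members with a peak, GSTU17 and GSTU9 are the 2 that fell in wt with H2O2, while GSTF9 and GSTF13 passed in no comparison. With H2O2, GSTF9 had log2 values of 0.13 ± 0.17 in bzip68 (adjusted p = 0.764) and 0.31 ± 0.17 in wt (adjusted p = 0.306). GSTF13 had -0.74 ± 0.49 in bzip68 (adjusted p = 0.466) and 0.01 ± 0.50 in wt (adjusted p = 0.996). GSTF6, the member called between genotypes in mock plants, had no peak assigned, and neither did GSTU4, GSTU10, GSTU12 or GSTU24. Peaks over the gene or up to 1000 bases upstream of GSTU1 (score 589.4), GSTU14, GSTU18, GSTF10 and GSTF14 were assigned by the authors to other genes. That search did not cover bases past the 3′ end. Among peaks the authors listed as flanking, those past the 3′ ends of GSTU12 (chr1:26330872-26332568, score 1276.0, rank 21) and GSTF8 (chr2:19560208-19561776, score 224.8) were assigned to other genes. So were weaker ones past the 3′ ends of GSTU13 (score 78.36) and GSTU16 (96.44). Farther upstream than 1000 bases, peaks assigned elsewhere lay before GSTU28 (233.4) and GSTU2 (the GSTU1 peak).

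Among 18 measured genes of glutathione metabolism and conjugate transport, 2 rose and 1 fell with H2O2 in each genotype (16.7%, beside 7.39% of all genes in bzip68 and 9.74% in wt). GSH2, which makes glutathione, had 150.9, 157.4 and 176.1 CPM in H2O2 bzip68 libraries, against 110.2, 102.4 and 99.6 CPM in mock bzip68 libraries (log2 0.63 ± 0.11, adjusted p = 0.00256). In wt it had 182.3, 203.7 and 183.9 CPM in H2O2 libraries, against 110.5, 100.7 and 92.7 CPM in mock libraries (log2 0.91 ± 0.11, adjusted p = 8.33e-05). GGCT2;2, which breaks glutathione down in the cytosol, rose by 0.44 ± 0.13 in bzip68 (adjusted p = 0.0492) and 0.53 ± 0.13 in wt (adjusted p = 0.0159). GR1, a glutathione reductase, had 153.9, 195.0 and 170.9 CPM in H2O2 bzip68 libraries, against 233.0, 349.3 and 272.4 CPM in mock bzip68 libraries (log2 -0.72 ± 0.15, adjusted p = 0.00627). In wt GR1 had 165.7, 196.2 and 179.1 CPM in H2O2 libraries, against 292.4, 263.5 and 267.7 CPM in mock libraries (log2 -0.61 ± 0.15, adjusted p = 0.0146). So GSH2 was higher and GR1 lower in every H2O2 library of both genotypes. The vacuolar conjugate transporter ABCC3 had the smallest p of this list between genotypes in mock plants, at log2 -1.06 ± 0.30 (adjusted p = 0.22), and the peptide transporter OPT4 for the difference of responses, at -0.65 ± 0.28 (adjusted p = 0.753).

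A list of other glutathione S-transferases, which also held the phi gene GSTF12, had 12 measured genes. With H2O2 in bzip68 only the dehydroascorbate reductase DHAR2 rose (log2 0.70 ± 0.18, adjusted p = 0.0259), 8.33% of the list, beside 4.11% of all genes. In wt edgeR called 0, where 9.74% of all genes were called. At an unadjusted p under 0.05 edgeR had 1 there, DESeq2 0 and limma voom 2. GSTF12 had the smallest p of that list between genotypes, at 0.91 ± 0.22 in H2O2 plants (adjusted p = 0.191) and 0.67 ± 0.21 in mock plants (adjusted p = 0.243). Of 20 measured genes of xenobiotic and oxylipin detoxification, 5 rose with H2O2 in bzip68 (25.0%, beside 4.11% of all genes), among them the glucosyltransferase UGT73B5 (1.5 ± 0.28, adjusted p = 0.00554) and the oxophytodienoate reductase OPR1 (0.95 ± 0.20, adjusted p = 0.00762). In wt 1 of the 20 passed (5.0%, beside 9.74% of all genes), UGT73C6, a flavonol glucosyltransferase, which fell (-2.23 ± 0.47, adjusted p = 0.0149). In mock plants 18 of the 20 had negative log2 values in bzip68 over wt, with a median of -0.53 against 0.01 over all genes and none called. At an unadjusted p under 0.05 there were 11, where 10.1% of all genes passed. DESeq2 called 1 and limma voom 5, where 1.21% and 4.63% of all genes were called. UGT73C6 was the one with the smallest p there, at -1.97 ± 0.46 (adjusted p = 0.166). Mock wt replicate 3 was the lowest mock wt library for 15 of the 20. UGT73C6 had 27.6, 32.5 and 27.3 CPM in mock bzip68 libraries, against 121.1, 170.2 and 51.6 CPM in mock wt libraries. The list's median was -0.29 without mock wt replicate 2, the setting furthest from the main value among fits that left out 1 library, and -0.68 without mock wt replicate 3, where 2 of the 20 were called. The difference of responses for UGT73C6 was 2.81 ± 0.65 (adjusted p = 0.588).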

How the data were processed

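The members and the gene lists were chosen with earlier results of these data known. Per the submitters' processing notes, the tools were MACS 1.4.3, TopHat2 2.1.0, ChIPseeker and RSEM 2.1.30, on TAIR10, with no roles given. The authors deposited whole-number counts per gene. The 6 per-sample columns that match no label were not used. Counts were filtered with filterByExpr by group, scaled by TMM and fitted over 12 libraries with edgeR 4.0.16 (robust quasi-likelihood, 1 mean per group, R 4.3.3), in 5 contrasts. CPM uses the TMM-scaled totals, and SE is the log2 fold change over the root of F. DESeq2 1.42.0, limma 3.58.1 voom and fits leaving out libraries were alternatives. The fit was tested on simulated data, for the genotype contrast in mock plants only. It recovered 78.4% of 102 simulated 2-fold changes and 99% of 98 simulated 4-fold changes, with 19 false calls. The changed genes were drawn above a floor on mean counts, so low genes were not covered. More genes were changed in the simulation than the 39 that edgeR called in the real contrast. The cutoff set by the adjustment therefore differs, and the recovered shares need not hold for the real contrast. Replicate pairs differed by more than sampling noise. Same-numbered libraries deviated together only for H2O2 against mock in bzip68 (r 0.37, 0.49 and 0.18), a hint of pairing in the values that no label states.

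Per the file headers, the deposited score is the negative log10 of a peak's p-value times a constant, and peak calling used GFP-FLAG as input, at a p-value under 1e-05 in the larger list. Whether samples were pooled for peak calling is not stated. Of 5412 genes with a nuclear peak, 5343 were found in the TAIR10.1 reference, all on the same chromosome and overlapping the authors' gene. Motifs were searched on both strands.

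Members were named where called (up to 8 in each direction), where they had the 3 smallest p and none was called, where they were among the 4 highest tau or phi genes per kb, or where they had a peak. From each other list came up to 2 called genes in each direction, or the 1 with the smallest p.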

Additional observations from a re-analysis of the deposited data

How the results depend on the processing

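With H2O2 the count of members called was within 1.5 times its main value under every alternative in bzip68, and under all but limma voom in wt. Between genotypes in mock plants the count of 1 was less stable. In the other comparisons the main count was 0, where such a ratio has no meaning. The share of all genes called was worked out for the main fit, DESeq2 and limma voom only. Counts from the other fits below have no such share beside them. Between genotypes in mock plants 1 member was called, against 2 with DESeq2, 3 with limma voom, 0 with only the libraries compared, and 0 to 2 when 1 library was left out. With H2O2 in wt 7 were called, against 12 with limma voom and 5 to 8 when 1 library was left out. With H2O2 in bzip68 10 were called, and 7 to 11 when 1 library was left out. For the difference of responses the count was 0, and 0 to 1 when 1 library was left out; the fit on only the libraries compared is the same fit there. Between genotypes in H2O2 plants it was 0 under every alternative run. RLE scaling and no filter on low counts gave the main count in each comparison. No member had a peak in the shorter list, against 5 in the larger, and the cause of these changes was not tested.

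With the replicate number as a block, members called numbered 1 and 0 between genotypes (mock, H2O2), 8 with H2O2 in wt, 11 with H2O2 in bzip68 and 0 for the difference. In the bzip68 response the block kept all 10 members called and added GSTU25. Same-numbered libraries deviated together only in this comparison, and no label pairs them. In wt the block ended the call of GSTU2 (adjusted p = 0.0608) and added GSTU16 (log2 -0.68, adjusted p = 0.0412) and GSTU25 (0.61, 0.0104). With only the libraries compared, the calls of GSTF6 in mock plants (adjusted p = 0.115), GSTU9 (0.0519) and GSTU2 (0.0714) in wt, and GSTU8 (0.0585) and GSTF11 (0.101) in bzip68 were lost, and GSTU16 was added in wt (0.0391). DESeq2 also lost GSTU2 in wt (0.0872). In bzip68, GSTF10 was added with limma voom (log2 0.40, adjusted p = 0.0191) and without mock bzip68 replicate 1 (0.55, 0.0198), and GSTU23 with limma voom (-1.06, 0.0281). With 3 libraries a group, mean levels near 1 CPM limit what can be detected. Where a fit leaves out 1 library, its group keeps 2.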
